A study of Mus musculus with 8 samples.

Results

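Active stem cells at the base of the mouse intestinal crypt were followed through 10 of their marker genes on 8 single-colour microarrays: Lgr5, Olfm4, Ascl2, Smoc2, Cdca7, Tnfrsf19, Rgmb, Slc12a2, Prom1 and Aqp4. They were taken by gene name from the probe annotation, which gave 15 probes among 39429 on the array. RNA came from lower crypts of the jejunum, cut from fixed sections by laser capture microdissection, with 1 array per mouse. Food was withheld for 24 h from 4 mice before the drug was given, while the other 4 had been fed, and the labels give 2 males and 2 females in either feeding state. The mice were 4 to 6 weeks old, received 80 mg/kg etoposide into the tail vein, were given moistened food afterwards and were sampled 3 h after the injection. Etoposide is a topoisomerase II poison that breaks DNA. Every mouse carried the Lgr5EGFP-IRES-CreERT2 allele over a wild-type allele, so every group shares a reporter cassette placed in 1 copy of Lgr5, 1 of the 10 genes. Mice not given etoposide were not among the samples, and the fast itself cannot be told apart from the food offered after it.

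Active stem cells lie between the Paneth cells at the crypt base, divide steadily and renew the epithelium. They are kept in this state by Wnt signals, which R-spondins strengthen through Lgr5 and its relatives, and by Notch signals from neighbouring cells. Lgr5 and Ascl2 are targets of Wnt signalling, and Olfm4 is a secreted glycoprotein whose transcript is abundant in these cells and responds to Notch. Lgr5-positive stem cells are known for their sensitivity to DNA damage.

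The sequences shown are those of the Olfm4 probe, on which the clearest difference between the groups was read, and of the Prom1 probe that was rarely well above background, although the other Prom1 probe was so on all 8 arrays. Capitals mark the codons of the only forward reading frame that holds no stop codon.
Olfm4: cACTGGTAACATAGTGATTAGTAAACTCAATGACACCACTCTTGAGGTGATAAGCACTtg
Prom1: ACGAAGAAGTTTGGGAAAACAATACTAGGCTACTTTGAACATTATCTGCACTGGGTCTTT
The Olfm4 probe lies on the forward strand at chr14:80421398-80421457 and starts at base 1300 of its transcript, and the Prom1 probe lies on the reverse strand at chr5:44397410-44397469 and starts at base 2436. Positions are in mm9, the build that the file headers name. Both are 60 bases long, with a GC content of 40.0% for Olfm4 and 38.3% for Prom1. The second Prom1 probe lies at chr5:44384861-44384920, starting at base 3686 of another transcript variant. Exon and UTR annotation in mm9 was not used here.

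Signals are given as log2 processed signal minus the 75th percentile of each array, so 0 is the level of that percentile. Levels of different probes are not compared, since each probe binds with its own strength. The scanner software marks a signal as well above background or not, and between 53.2% and 65.6% of probes were so marked per array. Of the 15 probes, 11 probes of 9 genes were well above background on at least 4 arrays and were tested with all 24459 probes that met this filter. The lower crypt label was checked with markers: the Paneth cell genes, which belong to the crypt base, were well above background on all 8 arrays for 10 of 10 measured members, Lyz1 among them. Markers of other cells were present as well, with Muc2 of goblet cells, Chga of enteroendocrine cells, Alpi of enterocytes and the collagen gene Col1a1 each well above background on 8 arrays. In such captures fewer cells of a type and less RNA per cell cannot be told apart.

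Fasted replicate 3 and fed replicate 4 stood apart. Fasted replicate 3 was the only array scanned on the later day and had correlations across probes of 0.823 to 0.922 with the other arrays. Fed replicate 4 was labelled female but had no probe of Xist, the transcript of the inactive X chromosome, well above background, and the Y-linked Eif2s3y at a log2 processed signal of 9.31, while the 3 remaining female labels came with 5.05 to 5.29, not well above background. Main values below carry all arrays, and values without these are given where they bear on a result.

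Of the 10 genes, Olfm4 was the one whose fasted and fed arrays did not overlap when each array was scaled to its 75th percentile. Its signal was 2.37, 2.09, 1.91 and 0.91 in fasted replicates 1 to 4 and 3.32, 3.20, 2.74 and 2.44 in fed replicates 1 to 4. Every fed array was above every fasted array, but the highest fasted and the lowest fed array were only 0.072 apart, less than the scanner's own error of 0.11 on this scale. The mean was 1.82 ± 0.63 (SD, n = 4) in fasted and 2.93 ± 0.41 (SD, n = 4) in fed crypts, a log2 difference of -1.11 (SE 0.33, 95% interval -1.85 to -0.36), or 2.15-fold more in fed crypts. In limma's test over all probes the unadjusted p was 0.0081 and the Benjamini-Hochberg adjusted p was 0.652, so Olfm4 did not pass the threshold of 0.05. Of all 24459 probes tested 0.0% passed. An unadjusted p under 0.05 was found for 7.2% of them, 2.4% with the fasted mean lower and 4.8% with it higher, and for 1 of the 11 probes of these genes, that of Olfm4. Groups that do not overlap were found for 5.2% of all probes, 1.92% with fasted lower and 3.28% with fasted higher, and again for Olfm4 as 1 of the 11.

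**Figure D1:**
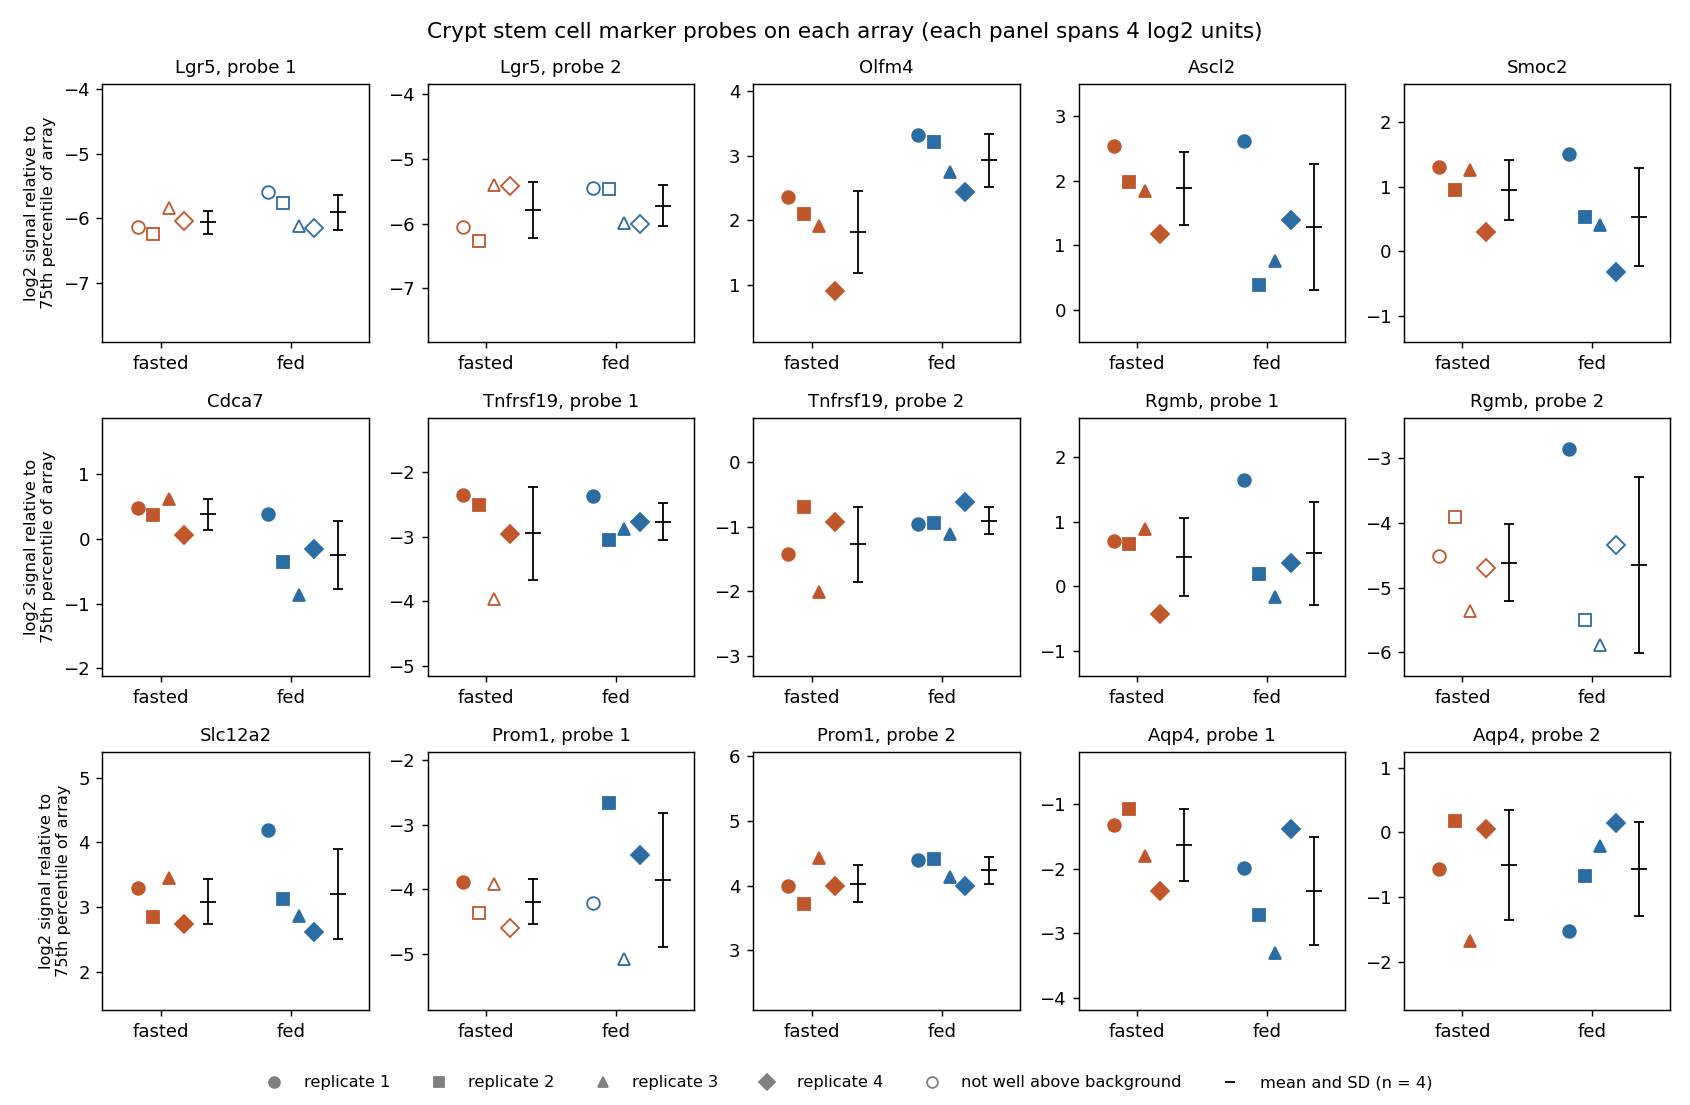
Log2 signal relative to the 75th percentile of each array for the 15 probes of the 10 genes, with 1 symbol per array (shape gives the replicate, open symbols are not well above background) and the mean with SD (n = 4) beside each group; probes of a gene are numbered in the order of the text. The 4 fed arrays lie above the 4 fasted arrays for Olfm4 (2.44 to 3.32 against 0.91 to 2.37), and the groups overlap in every other panel.

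The Olfm4 difference had the same sign on each slide that held both groups. It was -0.95 between fasted replicate 1 and fed replicate 1, -0.65 between fasted replicate 2 and fed replicate 3, and -1.53 between fasted replicate 4 and fed replicate 4. With slide as a fixed block the difference was -1.04 (adjusted p = 0.211 in limma), and with slide as a random block it was -1.07 (adjusted p = 0.088). Without fasted replicate 4, the lowest array, it was -0.80, without fed replicate 4 it was -1.27, and without both fasted replicate 3 and fed replicate 4 it was -1.30 (adjusted p = 0.382). When arrays were scaled to their medians instead, the highest fasted array exceeded the lowest fed array by 0.11 (4.93 against 4.82), so the groups overlapped there. In the authors' deposited matrix the fasted arrays ran from 11.94 to 13.25 and the fed arrays from 13.40 to 13.93, without overlap.

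Lgr5, the receptor for R-spondins and the gene that carries the reporter, was not measurable. Its probes lie on chromosome 10 at 114900686 to 114900745 (probe 1) and at 114887403 to 114887462 (probe 2), both on the reverse strand in mm9, and neither was well above background on any of the 8 arrays. Probe 1 read between -6.23 and -5.60 and probe 2 between -6.26 and -5.41 over all arrays. The error assigned by the scanner software reached 99.7% of the signal for both probes. No fold is given, since neither group was well above background, and the arrays bear neither on a gain nor on a loss of Lgr5.

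Ascl2, a transcription factor needed for the stem cell state, had a higher mean in fasted crypts, with wide overlap. Its signal was 2.54, 1.99, 1.84 and 1.17 in fasted replicates 1 to 4 and 2.62, 0.39, 0.75 and 1.40 in fed replicates 1 to 4. Fed replicate 1 was the highest of all arrays and fed replicate 2 the lowest. The log2 difference was 0.59 (SE 0.47, 95% interval -0.47 to 1.65) with an adjusted p of 0.743 in limma. On the shared slides the difference was -0.079, 1.24 and -0.22, so 1 slide of 3 gave the positive sign. Without fed replicate 1 the difference was 1.04 and without fed replicate 2 it was 0.30. The probe lies on chromosome 7 at 150152734 to 150152793.

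Cdca7, a cell division gene that Myc controls, had the smallest p among markers with a higher fasted mean. Its signal was 0.48, 0.37, 0.62 and 0.06 in fasted replicates 1 to 4 and 0.39, -0.36, -0.87 and -0.16 in fed replicates 1 to 4. Only fed replicate 1 reached into the fasted range. The log2 difference was 0.63 (SE 0.29, 95% interval -0.011 to 1.27), with an unadjusted p of 0.0534 and an adjusted p of 0.692 in limma. On the shared slides it was 0.085, 1.24 and 0.22, and with slide as a fixed block 0.51. The probe lies on chromosome 2 at 72324849 to 72324908.

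Smoc2, a secreted matricellular protein (probe on chromosome 17 at 14541664 to 14541723), ran from 0.30 to 1.31 in fasted and from -0.33 to 1.51 in fed crypts, with a log2 difference of 0.42 (SE 0.39). The fed group enclosed the fasted group at both ends. Without fed replicate 4, its lowest array, the difference was 0.14, without fed replicate 1, its highest, it was 0.75, and without fasted replicate 4 it was 0.64. Rgmb, a coreceptor for bone morphogenetic proteins, ran from -0.43 to 0.89 in fasted and from -0.17 to 1.64 in fed crypts on probe 1 (chromosome 17, 15941859 to 15941918), with a log2 difference of -0.054 (SE 0.43). The sign was not stable: the difference was 0.33 without fed replicate 1, 0.24 without fasted replicate 4 and -0.30 with slide as a fixed block. Probe 2 of Rgmb, at 15943973 to 15944032, was well above background on fed replicate 1 alone.

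Slc12a2, the basolateral sodium, potassium and chloride cotransporter that feeds crypt secretion, ran from 2.73 to 3.45 in fasted and from 2.61 to 4.19 in fed crypts. Fed replicate 1 was the highest array here too, and the log2 difference of -0.12 (SE 0.34) was 0.22 without it. Prom1, a membrane protein of cell protrusions, was read differently by its probes. Probe 2 was well above background on all 8 arrays and ran from 3.72 to 4.42 in fasted and from 4.00 to 4.42 in fed crypts, a log2 difference of -0.21 (SE 0.19, 95% interval -0.63 to 0.22). It was -0.10 without fasted replicate 2, -0.34 without fasted replicate 3 and -0.069 with quantile scaling. Probe 1, the sequence printed above, was well above background on 1 fasted and 2 fed arrays and was not tested.

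Tnfrsf19, also called Troy, is a member of the tumour necrosis factor receptor superfamily that dampens Wnt signalling in stem cells. Its probe 1 (chromosome 14, 61582873 to 61582932) ran from -3.96 to -2.36 in fasted and from -3.05 to -2.38 in fed crypts (log2 difference -0.18, SE 0.42). Probe 2 (61589667 to 61589726) ran from -2.02 to -0.70 in fasted and from -1.11 to -0.61 in fed crypts (log2 difference -0.37, SE 0.32). On both probes fasted replicate 3 was the lowest array, and without it the differences were 0.16 and -0.12. Aqp4, a water channel, had log2 differences of 0.71 (SE 0.46) on probe 1 and 0.060 (SE 0.48) on probe 2. Without fed replicate 3 the difference on probe 1 was 0.39, and with array weights it was 1.18. Its probes did not rank the arrays alike: fed replicate 3 was the lowest array on probe 1 and fasted replicate 3 on probe 2.

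**Figure D2:**
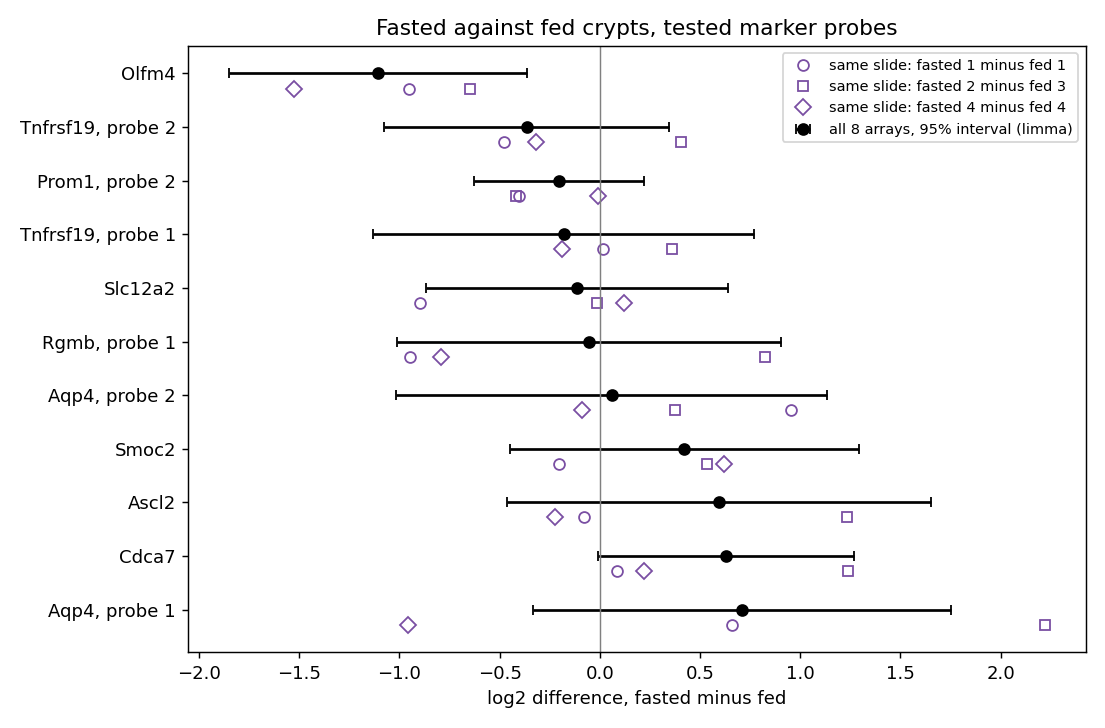
Log2 difference between fasted and fed arrays for the 11 tested probes (filled points with 95% intervals from limma) and the difference within each of the 3 slides that held both groups (open symbols). The interval of Olfm4 runs from -1.85 to -0.36, and those of the other 10 probes include 0.

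Over the 11 tested probes the fasted mean was lower for 6 and higher for 5, with a median log2 difference of -0.054. Over all probes tested the fasted mean was lower for 53.2% and higher for 46.8%, and the median was -0.034. The adjusted p of the 11 ran from 0.652 to 0.977 in limma. The upper bounds for Ascl2 and Cdca7, 1.65 and 1.27, exceed the size of the Olfm4 difference. So do those for Smoc2 (1.29) and for probes 1 and 2 of Aqp4 (1.75 and 1.14). In the direction of Olfm4, the lower bound for probe 1 of Tnfrsf19 (-1.13) lies beyond the Olfm4 difference of -1.11. A missed threshold therefore does not show equal levels.

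Within each group the same arrays tended to be high or low on these probes. How often they were so over all probes tested was not counted, so this is not shown to be particular to the markers. Fed replicate 1 was the highest fed array for 7 of the 11 probes, those of Olfm4, Ascl2, Smoc2, Cdca7, Slc12a2 and probe 1 of Rgmb and of Tnfrsf19. Fasted replicate 4 was the lowest fasted array for 7 of 11, those of Olfm4, Ascl2, Smoc2, Cdca7, Slc12a2 and probe 1 of Rgmb and of Aqp4. Fasted replicate 3 was the lowest fasted array for both Tnfrsf19 probes and probe 2 of Aqp4. The summed signal of the stromal, vessel and leukocyte markers was highest on fed replicate 1 (123, in units of the 75th percentile). The same held for the sums of Paneth cell markers (840), the tested stem cell markers (63.7), other stem cell signature genes (109) and Wnt targets (314). Among fed arrays it also had the highest sums of proliferation, enteroendocrine and tuft genes, but not of goblet cell or enterocyte genes. This array had the smallest share of probes well above background and the lowest 75th percentile (10.1 in log2 signal). On fasted replicate 4 the stromal sum was the lowest of the fasted arrays (41.7) and the Paneth cell sum the highest of them (614). The part of other cells in the levels of the stem cell markers was not tested.

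**Figure D3:**
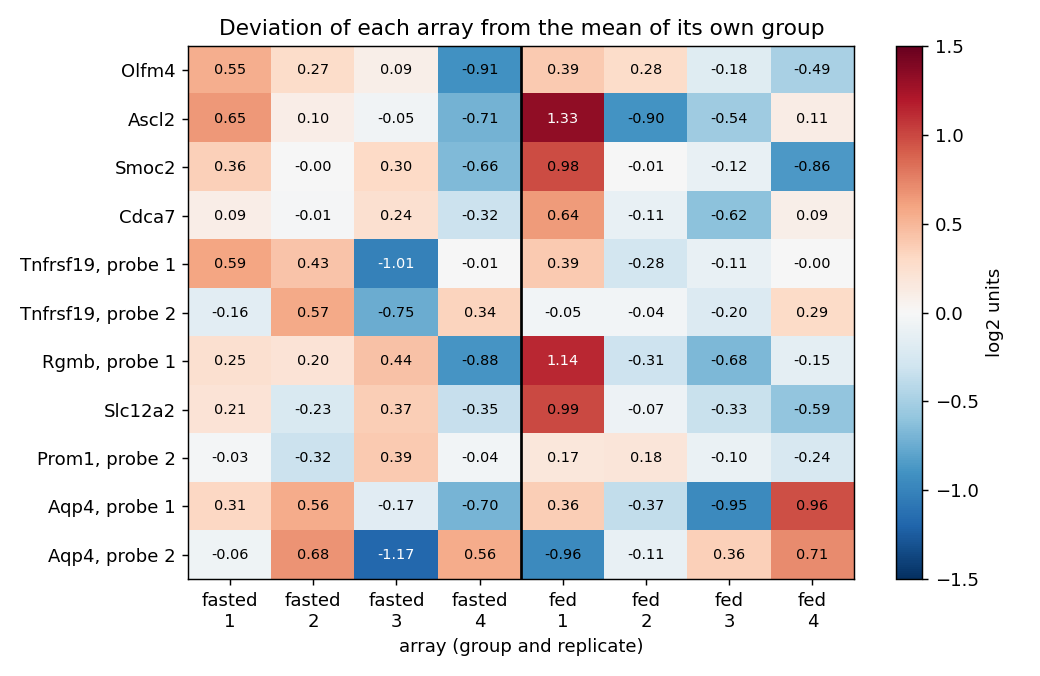
Deviation of each array from the mean of its own group in log2 units for the 11 tested probes (rows) and the 8 arrays (columns), red above and blue below the group mean. Fed replicate 1 is above its group mean for 9 of 11 probes and fasted replicate 4 below for 9 of 11. The same counts over all probes tested were not made.

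On the main scaling the summed signals of Paneth cell and enterocyte markers did not overlap between the groups, the former lower and the latter higher on fasted arrays. For Paneth cells the gap was narrow, with 614 on the highest fasted array and 624 on the lowest fed array. Whether these sums stay apart under other scalings was not tested. Most single genes of these lists did overlap, since 2 of 10 Paneth cell and 8 of 19 enterocyte genes separated the groups. Over all probes tested, 1.92% separated the groups with fasted lower and 3.28% with fasted higher. The 10 tested Paneth cell genes, of 15 listed, all had lower fasted means, with a median log2 difference of -0.46, and their summed signal ran from 465 to 614 on fasted and from 624 to 840 on fed arrays. The 19 tested enterocyte genes, of 20 listed, all had higher fasted means, with a median of 1.13, and their summed signal ran from 104 to 205 on fasted and from 51.2 to 92.7 on fed arrays. No gene of these lists passed in limma, where 1 Paneth cell and 13 enterocyte genes had an unadjusted p under 0.05. Such a p was found for 2.4% of all probes tested with the fasted mean lower and 4.8% with it higher. The sums overlapped between the groups for goblet cells (10 of 10 genes tested, 295 to 335 on fasted against 312 to 378 on fed arrays) and stromal, vessel and leukocyte markers (16 of 19, 41.7 to 81.9 against 33.1 to 123). They also overlapped for enteroendocrine cells (12 of 13, 23.9 to 50.2 against 22.6 to 47.9) and tuft cells (10 of 10, 6.74 to 25.2 against 5.28 to 23.8). Of the listed markers of these cells on the array, Nts of enteroendocrine cells alone was well above background on no array. The part of these cells in the Olfm4 difference was not tested.

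**Figure D4:**
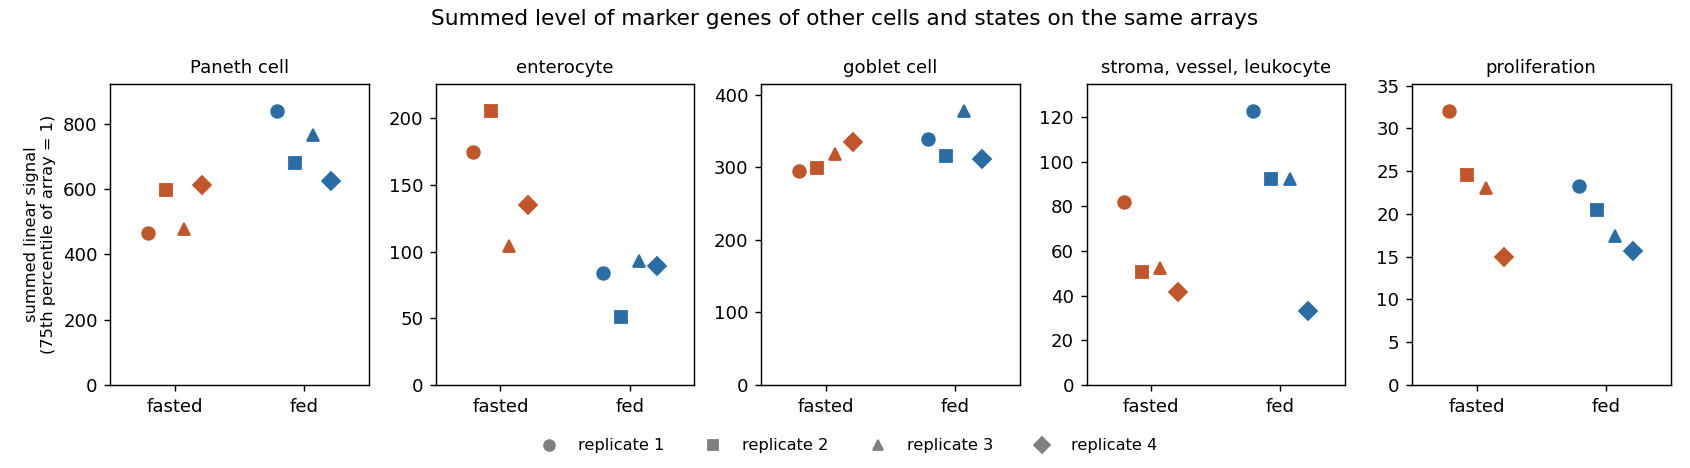
Summed linear signal of marker genes on each array, in units of the array's 75th percentile, for Paneth cell, enterocyte, goblet cell, stromal and proliferation genes (shape gives the replicate). Paneth cell markers are lower on all fasted arrays (465 to 614 against 624 to 840) and enterocyte markers higher (104 to 205 against 51.2 to 92.7), while the other lists overlap.

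Other genes of the stem cell signature had differences of both signs. Of 32 further genes linked to Lgr5-positive cells 24 were tested, 13 with a lower and 11 with a higher fasted mean, and the median log2 difference was -0.18. None passed in limma, where 3 had an unadjusted p under 0.05, against 7.2% of all probes tested. Gkn3, a gastrokine of stem cells at the crypt base, ran from 2.48 to 2.94 in fasted and from 3.06 to 3.82 in fed crypts, a log2 difference of -0.66 (SE 0.21). It was the only gene of the 24 whose groups did not overlap, as was found for 5.2% of all probes tested. Its differences on the shared slides were -1.12, -0.55 and -0.40. Kcnq1, a potassium channel, differed by 0.71 (SE 0.32), Rin2 by -0.48 (SE 0.21) and Fstl1 by -0.53 (SE 0.29), with adjusted p from 0.655 to 0.704 for these 4 genes.

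Wnt targets and proliferation genes gave no call either. The summed signal of the Wnt targets ran from 191 to 224 on fasted and from 230 to 314 on fed arrays, but without Ephb3 the sums overlapped (44.6 to 56.2 against 50.1 to 69.8). Of 19 Wnt target and pathway genes 17 were tested, 8 with a lower and 9 with a higher fasted mean and a median log2 difference of 0.062. None passed in limma, where 1 had an unadjusted p under 0.05, against 7.2% of all probes tested. Ephb3, a receptor that positions cells at the crypt base, differed by -0.32 (SE 0.14), but by -0.031 with quantile scaling. The sign turned where normexp background correction was joined to quantile normalization (0.028) and in the authors' deposited matrix (0.039), and without fed replicate 1 the difference was -0.21. Cd44, a Wnt target on crypt base cells, differed by -0.33 (SE 0.15), and by -0.12 with normexp and quantile normalization. Cd44 and Ephb3 were the genes of this list whose groups did not overlap, by 0.0038 and 0.061, less than the scanner's error of 0.11. Groups that do not overlap were found for 5.2% of all probes tested. Sox4, a transcription factor, differed by -0.56 (SE 0.33), and by -0.23 without fed replicate 1. Nkd1, a Wnt inhibitor, was well above background on 3 of 4 fasted but 1 of 4 fed arrays, so its difference of 1.34 (SE 0.80) is taken against a mostly dim fed group. It was 0.29 with normexp and quantile normalization, 2.29 with array weights and 2.45 in the authors' deposited matrix. Of 17 proliferation genes 15 were tested, 4 with a lower and 11 with a higher fasted mean and a median of 0.18. Over all probes tested the fasted mean was higher for 46.8% and the median was -0.034. No proliferation gene passed in limma, where 0 had an unadjusted p under 0.05, against 7.2% of all probes tested. The replication helicase subunits Mcm2 and Mcm6 differed by 0.43 (SE 0.25) and 0.53 (SE 0.32), Rrm2 of ribonucleotide reductase by 0.67 (SE 0.43) and the mitotic kinase Cdk1 by -0.62 (SE 0.57). Single arrays weighed on these: without fasted replicate 3 the difference was 0.28 for Mcm2 and 0.039 for Cdk1, without fasted replicate 4 it was 0.85 for Mcm6, and without fasted replicate 1 it was 0.38 for Rrm2 and -0.93 for Cdk1.

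The genes whose pattern was most like that of Olfm4 over the 8 arrays were Chid1, Ccdc82, Bud13, Man2b2 and Acox2. Their Pearson correlations with Olfm4 were 0.97, 0.94, 0.93, 0.92 and 0.92 and their Spearman correlations 0.95, 0.86, 0.71, 0.86 and 0.81. Without the 2 arrays farthest from the Olfm4 median, fasted replicate 4 and fed replicate 1, Pearson's r was 0.90, 0.87, 0.77, 0.85 and 0.76. They were the highest of 10726 genes well above background on all arrays, and the points share the 2 groups and the array scaling, so these values are a description and carry no p. None of the other markers was among them. For Slc12a2, Smoc2, Ascl2 and Cdca7, Pearson's r with Olfm4 was 0.50, 0.21, 0.0056 and -0.27, and without those arrays it was -0.22, -0.45, -0.80 and -0.77. Taken as deviations from the group means, which leaves out the difference between the groups, r was 0.64, 0.82, 0.53 and 0.50 for the same genes. In that form it was 0.71 for probe 1 of Rgmb, 0.30 for probe 1 of Aqp4, 0.27 for probe 2 of Prom1 and 0.26 for probe 1 of Tnfrsf19. For probe 2 of Tnfrsf19 and probe 2 of Aqp4 it was negative (-0.31 and -0.51).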

How the data were processed

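Per the labels' protocols, Cy5-labelled cDNA of 8 laser-captured samples was read on Agilent mouse arrays. Linear spot intensities are given by the deposited scanner files, from which the authors' scanner software, Agilent Feature Extraction 11.5.1.1 per the submitters' processing notes, had subtracted background. A matrix of log2 values deposited by the authors for these arrays has column medians of 7.73 to 8.33, and its scaling and centring stay unknown. Its direction is that of the signal (Spearman correlation across probes of at least 0.9999).

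Control spots and spots flagged as outliers were left out, spots of a probe were averaged, and 0 probes were saturated. Of 39429 probes 27655 took their symbol from RefSeq genes of GRCm38.p6, whose positions were not used. Probes that 4 or more of the 8 arrays showed well above background were tested with limma 3.58.1 in R 4.3.3 (lmFit, and eBayes with a mean trend), with feeding group as the only term and Benjamini-Hochberg adjustment over 24459 probes. Labelled sex, balanced over the groups, was an alternative because 1 array contradicts its label. Being balanced, the labelled term cannot move the differences, and that of Olfm4 stayed at -1.11. By its Xist and Eif2s3y signals fed replicate 4 goes against its label, so sex by transcripts is not balanced over the groups. A term for it was not fitted. The fit was tested on simulated data in which 200 probes were changed by known differences. It called 10.3% of the changes of 1 log2 unit, 53.3% of those of 2 and 71.4% of those of 3. Changes of 1 log2 unit were thus mostly missed there. The simulated noise was independent between probes and arrays, while deviations of real arrays on a shared slide correlated at 0.36 to 0.58. The shares called therefore hold for the simulated setting alone. P-values measure the spread between these arrays, 1 per mouse, which holds differences of capture, labelling and slide as well as those between mice. The number of arrays limits the precision.

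The members and lists were chosen with earlier results of these data known. Named beside the members are the 4 genes with the smallest p of each of 3 lists (other stem cell signature genes, Wnt targets, proliferation) and the 5 genes most like Olfm4. Each gene outside the members is represented by its brightest tested probe. The list of other stem cell signature genes and the Wnt and proliferation lists were written from background knowledge, as were the lists for Paneth, enterocyte, goblet, enteroendocrine, tuft and stromal cells. Slides were read from the files: both feeding states were present on 3 slides, and fasted replicate 3 and fed replicate 2 had a slide to themselves. Alternatives were other scalings, background correction, filters, the authors' matrix, 1 probe per gene, covariates, array weights, a block for slide or for replicate number, no mean trend, a threshold of 0.1 and leaving out arrays.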

Additional observations from a re-analysis of the deposited data

Results flagged for a closer look

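Among 66 groups of 4 arrays examined over the genes and marker sums named here, 4 held an array set far from the other 3 relative to the range of its group, where chance gives about 1 in 20. Fed replicate 1 was far above the other fed arrays for Ephb3, at a log2 signal of 7.93 relative to the 75th percentile. It was also far above them in the summed signal of the other stem cell signature genes (109, in units of the 75th percentile) and of the Wnt targets (314, Ephb3 included). Fasted replicate 4 was far below the other fasted arrays for Mcm6, at 1.57 on the log2 scale. None of the 11 tested probes of the 10 marker genes was set apart in this way.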

How the results depend on the processing

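In limma 0 probes passed the threshold of 0.05 under each alternative run, with a smallest adjusted p between 0.0740 (slide as a random block) and 0.959, while 891 to 6647 probes had an unadjusted p under 0.05. Raising the threshold to 0.1 added none in the fit reported. For Olfm4 the log2 difference stayed negative under every alternative run, from -1.33 to -0.80, with adjusted p from 0.088 to 0.959. With the replicate number as a block it was -1.11 (adjusted p = 0.736), and the block changed no call. The numbers were not taken to pair the mice. Deviations of same-numbered arrays from their group means correlated at 0.36, -0.45, -0.43 and 0.58, against 0.36, 0.51 and 0.58 for arrays of a shared slide. Arrays that shared neither ran from -0.49 to 0.48. Replicates 1 and 4 shared both number and slide, so these cannot be told apart there, and how the mice were matched was not tested. The median over the tested probes of the 10 markers, -0.054, ran from -0.218 to 0.216 as 1 array was left out, the positive end being without fed replicate 1, and was 0.232 with array weights. The sign turned for Ephb3 with normexp correction and quantile normalization together (0.0276; -0.031 with quantile scaling alone) and in the authors' matrix (0.0386). With the percentage of detected probes per array as a covariate it turned for probe 1 of Rgmb (0.167), Slc12a2 (0.114) and probe 2 of Aqp4 (-0.331), the last also in the authors' matrix (-0.000918). It turned for probe 1 of Tnfrsf19 with slide as a fixed block (0.0627), with array weights (0.191) and without fasted replicate 3 and fed replicate 4 (0.155), for probe 1 of Rgmb with array weights (0.247), and for Cdk1 without those 2 arrays (0.0206). As 1 array was left out, the difference ran from -0.279 to 0.325 for Rgmb, -0.311 to 0.216 for Slc12a2, -0.376 to 0.155 for probe 1 of Tnfrsf19, -0.259 to 0.451 for probe 2 of Aqp4 and -0.932 to 0.0386 for Cdk1. The cause of these turns was not tested. Signal over background set the limit for Lgr5, for probe 1 of Prom1 and for probe 2 of Rgmb.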
